A study of Homo sapiens with 4 samples.

Results

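Human colorectal cancer cells of the lines SW480 and SW620 are described as having come from a primary tumour and a later lymph node metastasis of the same patient. The 2 libraries of SW620 cells were compared with the 2 libraries labelled SW480, which are all 4 libraries of the series. For each cell line there was 1 library of control cells and 1 library of cells with SHMT2 knockdown. SHMT2 is the mitochondrial enzyme that makes glycine and one-carbon units from serine. According to the study's methods, the knockdown came from an shRNA that doxycycline switches on, and the labels name the other cells only as control. The comparison was between the cell lines, with the treatment as a term that both lines shared. Of the 26364 gene symbols in the deposited table of read counts, 14024 had at least 10 counts in at least 2 libraries and were tested.

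In the normal intestine, Wnt signals keep stem cells dividing at the base of the crypt, and cells mature as they leave it. Most colorectal cancers start with a lesion that keeps Wnt signalling on, usually loss of APC. Later steps often involve the TGF-beta pathway, which acts through SMAD4. Adhesion molecules, keratins and matrix genes are commonly compared between primary and metastatic cells, because epithelial cells that spread can lose junctions and gain mesenchymal genes.

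Library totals lay between 5530129 and 13774288 counts. Levels are given as CPM, counts scaled to a common library size by TMM. In 1 library, 3 counts correspond to 0.223 to 0.55 CPM, which is the floor used wherever a gene had no counts. Each cell line had 1 library per condition, and neither the labels nor the methods say that the libraries of a line came from separate cultures. The p-values therefore measure only the spread that remained between these 4 libraries after the line and treatment terms, which may be technical. That spread also holds any difference between the lines in their response to the knockdown. RNA was measured in bulk, so that fewer cells with a transcript and less transcript per cell cannot be told apart.

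The libraries labelled SW480 went against what is commonly described for that line, and this has to be read with every direction below. SW480 and SW620 are both described as lacking SMAD4 and as positive for vimentin. SMAD4 had 64.2 CPM in the control and 68.8 CPM in the knockdown library labelled SW480, and 2.20 and 1.41 CPM in the corresponding SW620 libraries. VIM, which encodes vimentin, had 4.89 and 4.22 CPM in the libraries labelled SW480 and 564 and 724 CPM in SW620. SMAD4 was therefore present and VIM was low in both libraries labelled SW480, while SW620 had the levels described for both lines. CDKN1A, the cell cycle inhibitor p21, had 378 and 287 CPM in the libraries labelled SW480 and 2.57 and 6.32 CPM in SW620. MDM2, a ubiquitin ligase, had 197 and 155 CPM against 66.0 and 48.2 CPM. The table holds no sequence, so the identity of the cells was not tested. These are the only libraries with that label, and no comparison can be given without them.

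**Figure D1:**
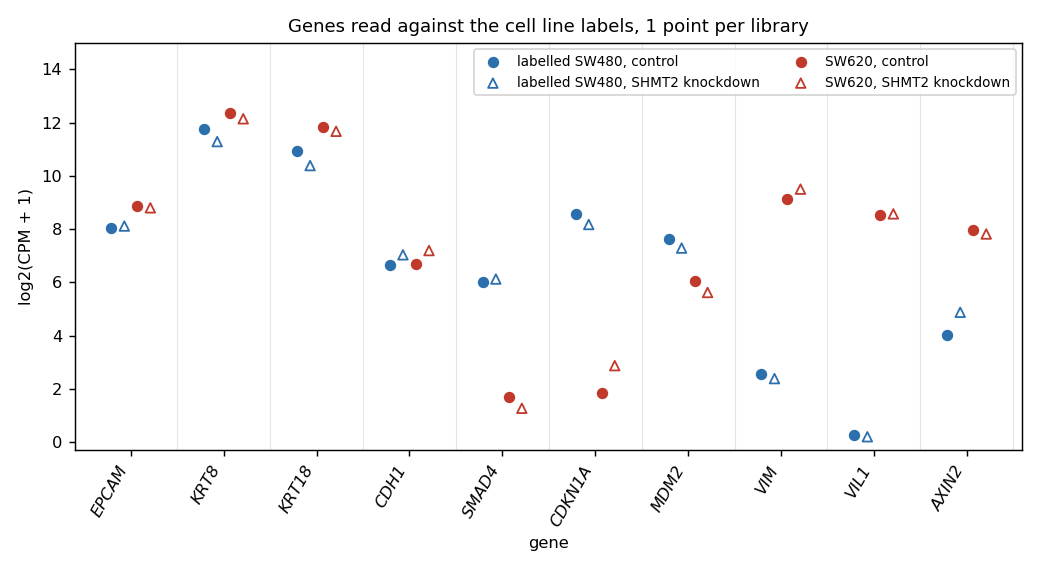
Level of 10 genes, as log2(CPM + 1) on the vertical axis, with 1 point per library (blue, labelled SW480; red, SW620; circles, control; triangles, SHMT2 knockdown). SMAD4, CDKN1A and MDM2 were higher in both libraries labelled SW480, VIM, VIL1 and AXIN2 were higher in both SW620 libraries, and CDH1 overlapped between the lines.

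All 4 libraries had the keratins KRT8, KRT18 and KRT19 and the adhesion genes EPCAM and CDH1 of epithelial cells. The 13 markers of colorectal epithelium summed to 7014 and 5401 CPM in the libraries labelled SW480 and to 10498 and 9523 CPM in SW620. KRT8, KRT18, KRT19 and EPCAM made up most of these sums. Of the 13 markers, 6 were above 1 CPM in both libraries labelled SW480 and 8 in both SW620 libraries, and CDX1 had no counts in any library. KRT20, GPA33, CEACAM5 and LGALS4 had at most 1.64 CPM in any library. VIL1 and CDH17 were the markers above 1 CPM in SW620 alone. The markers of other cell types were low. The 9 fibroblast markers summed to 20.5 to 31.3 CPM, almost all of it COL1A1 and, in SW620, LUM with 19.6 and 23.3 CPM. PDGFRA and FAP had no counts. The 10 leukocyte markers summed to 5.28 to 11.97 CPM, mostly CD68, and the 6 endothelial markers to 0.733 to 2.87 CPM.

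The lines differed in most of the genes tested. By edgeR's quasi-likelihood test, 8926 of 14024 genes passed an adjusted p of 0.05, or 63.6%. Of these, 4532 were higher in SW620 than in the libraries labelled SW480 (32.3% of those tested) and 4394 were lower (31.3%). A difference of at least 2-fold in both conditions was also met by 1665 of the higher genes (11.9% of those tested) and 2176 of the lower genes (15.5%). More than 16-fold in both conditions were 302 higher and 435 lower genes. These shares are the background against which the groups below are read. Counts under other settings have their own background. DESeq2 called 2680 genes higher and 2826 lower of 14024, and a filter of 50 counts left 3622 higher and 3497 lower of 11473. With no filter on low counts, 4330 were higher and 4723 lower of 20349. With log2(CPM + 1) values, Pearson's correlation across genes was 0.990 between the 2 libraries labelled SW480 and 0.992 between the 2 SW620 libraries. Between the lines it was 0.786 to 0.799. Genes are not independent replicates, and these values describe the libraries. The difference between the lines had the same sign in control and in knockdown cells for 12192 genes (86.9%) and for 8900 of the genes called (99.7%).

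**Figure D2:**
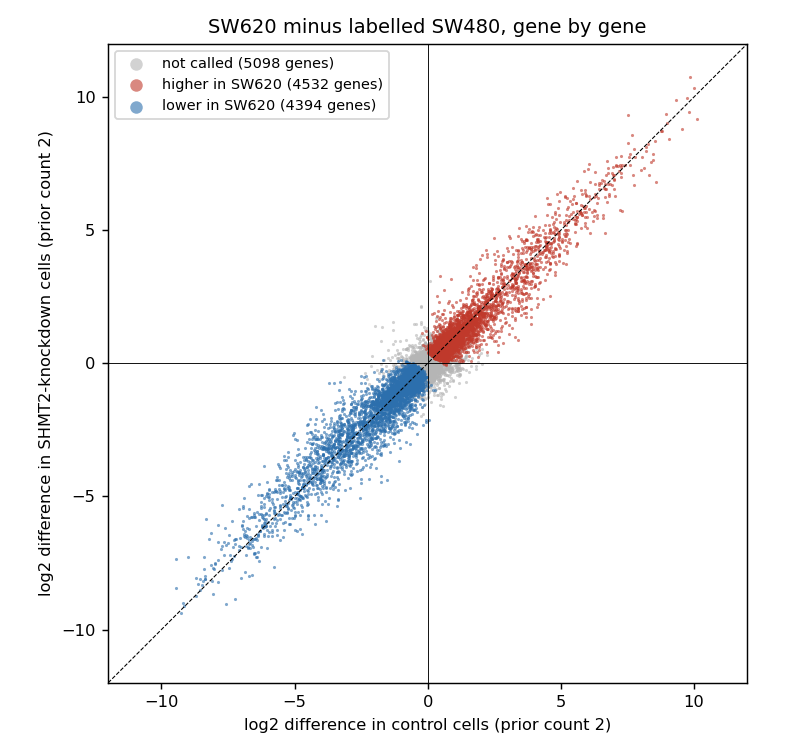
Log2 difference between SW620 and the libraries labelled SW480 for each of 14024 genes, in control cells (horizontal axis) and in SHMT2-knockdown cells (vertical axis), both with a prior count of 2. Red points are the 4532 genes called higher and blue points the 4394 called lower, and both clouds lie along the dashed line of equal difference.

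In choosing the largest folds, small RNAs, names turned into dates, XIST and genes on chromosomes 8 and Y were passed over. The 10 genes first named in each direction were chosen by the fitted fold among the other genes at 20 CPM or more in both libraries of the higher line. All had at most 1 count in the other line. A fold against no counts is only a bound, so no order is read among them or against genes with a measured ratio. ROBO1, a receptor for the Slit guidance cues (GRCh38 chromosome 3, 78597240 to 79767815), had no counts in either library labelled SW480 and 236 and 297 CPM in SW620, which was at least 755-fold higher. GJB1, the gap junction protein connexin 32 (chromosome X, 71215194 to 71225516), was likewise at 0 in both and had 205 and 156 CPM in SW620, at least 461-fold higher. TXNIP, an inhibitor of thioredoxin and of glucose uptake, had 121 and 79.2 CPM in SW620, and MME, the membrane peptidase neprilysin, had 101 and 96.9 CPM. They were at least 247-fold and 265-fold higher, since neither had a count in the libraries labelled SW480. TGFBI, a secreted matrix protein, had 1 count in the 2 libraries labelled SW480 and 211 and 215 CPM in SW620, a ratio of 3468 (95% exact interval 622 to 137026, counting error only). EPS8L3, FGD5, ASCL2, VWA2 and SCCPDH were chosen by the same rule and had no counts in the libraries labelled SW480.

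In the other direction, GTSF1, known for its part in silencing transposons in the germline (chromosome 12, 54455950 to 54473602), had 141 and 151 CPM in the libraries labelled SW480 and no counts in SW620, at least 457-fold lower. AMOTL1, a member of the angiomotin family at cell junctions, had 132 and 115 CPM and was at least 395-fold lower in SW620. NLRP2, a member of the NLR family, had 93.6 and 97.0 CPM and was at least 299-fold lower. GPR15, a chemoattractant receptor best known from lymphocytes that home to the colon, had 23.6 and 57.6 CPM against no counts. LINC01468, FAM127B, TSPAN18, CBLC, DPYSL5 and FAM127A also had no counts in SW620. FAM127A and FAM127B are near-identical copies, and how reads were split between them is not known.

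Such switches between lines were not rare. With at most 3 counts in both libraries of one line and at least 5 CPM in both of the other, 218 genes were present in SW620 and near zero in the libraries labelled SW480, of which 86 had no count there. They made up 2.03% of the 10723 genes at 5 CPM or more in both SW620 libraries. In the opposite sense there were 258 genes, 2.32% of 11117, and 86 of them had no count in SW620.

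Genes of Wnt signalling and of intestinal stem cells differed in both directions, with more of them higher in SW620 than over all genes. Of 40 tested, 24 were higher (32.3% of all genes were) and 13 were lower (32.5%, against 31.3% of all genes), and the median log2 fold change was 0.71, against 0.01 over all genes. LGR5, the receptor that marks crypt base stem cells, had 62.9 and 49.0 CPM in SW620 and 1 count in the libraries labelled SW480, a ratio of 860 (95% exact interval 154 to 34019). ASCL2, the transcription factor of the same cells, had 60.1 and 48.4 CPM in SW620 and no counts in the libraries labelled SW480, at least 140-fold higher. SMOC2 had 52.8 and 39.5 CPM against 0.208 and 0.151 CPM. The 3 stem cell genes were thus present in both SW620 libraries and at or under the floor in both libraries labelled SW480.

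Genes known to restrain Wnt signalling went both ways. AXIN2, NKD1 and NOTUM, picked from the list after their values were seen, were higher in SW620, and DKK1, given below, was lower. AXIN2, part of the complex that degrades beta-catenin, had 251 and 224 CPM in SW620 and 15.1 and 28.4 CPM in the libraries labelled SW480 (log2 fold change 3.50, SE 0.14, adjusted p = 3.71e-136 by edgeR). NKD1, an inhibitor of the pathway, had 2399 and 2288 CPM against 14.8 and 12.8 CPM (7.40, SE 0.13). NOTUM, the secreted enzyme that inactivates Wnt ligands, had 425 and 394 CPM against 8.75 and 9.05 CPM (5.53, SE 0.15). APCDD1, a membrane inhibitor, and LEF1, a transcription factor of the pathway, had no counts in the libraries labelled SW480 and were at least 103-fold and 31.9-fold higher. CTNNB1, beta-catenin itself, had 743 and 793 CPM in SW620 and 470 and 529 CPM in the libraries labelled SW480 (0.62, SE 0.10).

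Some Wnt genes went the other way. The ligand WNT16 had 146 and 120 CPM in the libraries labelled SW480 and 3 counts in all in SW620, a ratio of 855 (95% exact interval 292 to 4148). DKK1, a secreted Wnt antagonist, had 626 and 448 CPM against 2.93 and 5.87 CPM (log2 fold change -6.72, SE 0.16). The receptor FZD7 had 20.7 and 19.3 CPM against 0 and 0.149 CPM, and PROM1, which encodes the surface protein CD133, had 43.0 and 43.4 CPM against 2.38 and 2.23 CPM (-4.24, SE 0.23). MSI1, an RNA-binding protein of progenitor cells, was lower as well (-6.53, SE 0.43). CCND1, the cyclin that is often listed as a Wnt target, had 948 and 349 CPM in the libraries labelled SW480 and 217 and 83.9 CPM in SW620 (-2.09, SE 0.11). Both libraries labelled SW480 lay above both SW620 libraries.

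Most genes of intestinal differentiation had too few counts to be tested. Of 56 listed, 22 passed the filter on low counts, 13 of them higher in SW620 (59.1%) and 7 lower (31.8%), with a median log2 fold change of 1.49. With a filter of 50 counts, 4 were lower, and over all genes 3497 of 11473 were. VIL1, which bundles actin in the brush border, had 372 and 380 CPM in SW620 and 3 counts in the libraries labelled SW480, a ratio of 2042 (95% exact interval 698 to 9904). HNF4A, a transcription factor of enterocytes, had 120 and 102 CPM against 2.81 and 3.77 CPM (log2 fold change 5.11, SE 0.19). TFF3, the trefoil peptide of goblet cells, had 24.6 and 32.0 CPM against no counts, at least 80.7-fold higher. ISX, an intestinal homeobox gene, and MUC13, a membrane mucin, were higher too, with 11.7 to 17.4 CPM in SW620 and at most 1 count in each library labelled SW480. ISX was not called by DESeq2 (adjusted p = 0.0519).

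Other genes of the same tissue were lower in SW620. The enterocyte peptidase DPP4 had 9.58 and 14.9 CPM in the libraries labelled SW480 and 0.550 and 0.818 CPM in SW620 (log2 fold change -4.15, SE 0.40). CDX2, the caudal homeobox factor of the intestine, had 18.4 and 20.8 CPM against 9.90 and 13.4 CPM (-0.75, SE 0.21, adjusted p = 8.71e-04 by edgeR). The call for CDX2 was lost by DESeq2 (adjusted p = 0.11) and without the SW620 control library (adjusted p = 0.0608).

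**Figure D3:**
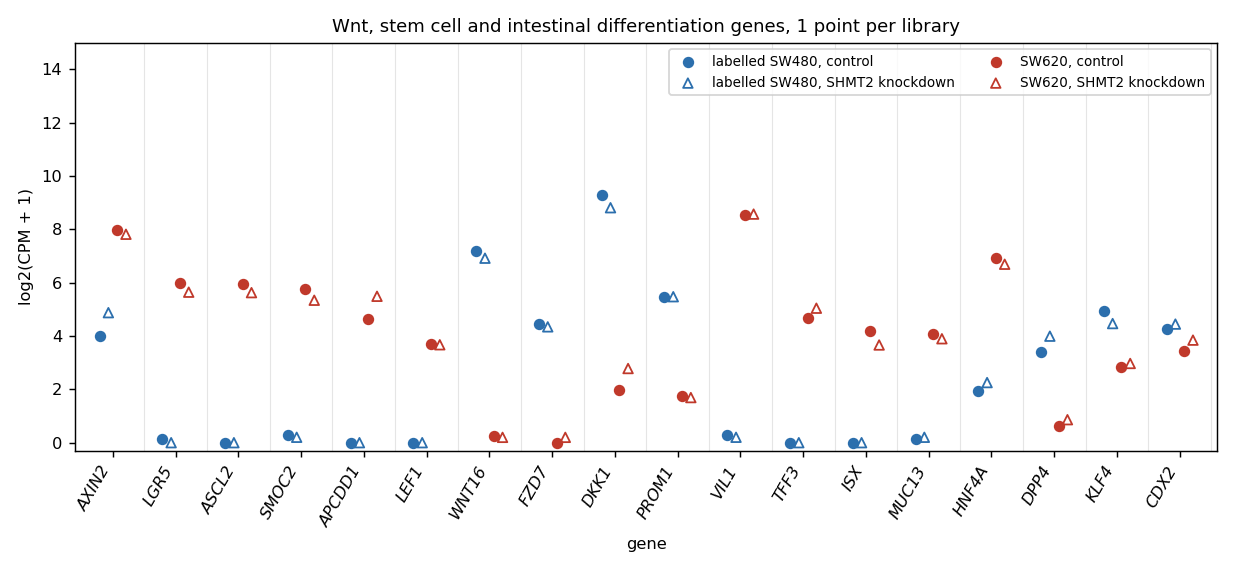
Level of 18 genes of Wnt signalling, stem cells and intestinal differentiation as log2(CPM + 1), with 1 point per library (blue, labelled SW480; red, SW620; circles, control; triangles, SHMT2 knockdown). From AXIN2 to LEF1 and from VIL1 to HNF4A both SW620 libraries were higher, from WNT16 to PROM1 and from DPP4 to CDX2 both libraries labelled SW480 were higher, and for none of the 18 genes did the lines overlap.

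HOX genes, which record position along the body axis, were higher in SW620 more often than lower. Of 28 tested, 16 were higher (57.1%) and 4 lower (14.3%), with a median log2 fold change of 1.13. The lower genes numbered 2 by DESeq2, 2 with a filter of 50 counts and 8 with no filter. Over all genes, 2826 of 14024, 3497 of 11473 and 4723 of 20349 were lower under these settings. HOXC10 had 49.3 and 47.3 CPM in SW620 and 3.12 and 2.41 CPM in the libraries labelled SW480 (4.10, SE 0.22), and HOXB8 differed by 2.40 (SE 0.22). HOXD9 had 9.90 and 10.6 CPM against 1 count in each library labelled SW480. HOXB13, a gene of the hindgut end of the axis, was lower, with 1.28 and 1.49 CPM in SW620 and 14.5 and 17.8 CPM in the libraries labelled SW480 (-3.54, SE 0.33). HOXA9 was also called lower (-0.62, SE 0.21), but not by DESeq2 (adjusted p = 0.208) nor without the SW620 knockdown library (adjusted p = 0.0806).

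Epithelial and mesenchymal genes were called in both directions, and single members of both groups differed widely between the lines. Of 43 genes of junctions and keratins, 15 were higher in SW620 (34.9%) and 19 lower (44.2%), with a median log2 fold change of -0.19. CDH1, E-cadherin, had 102 and 145 CPM in SW620 and 99.8 and 130 CPM in the libraries labelled SW480 (0.10, SE 0.12, adjusted p = 0.487 by edgeR). The tight junction genes went both ways. CLDN1 had 66.9 and 83.9 CPM in SW620 and 3 counts in the libraries labelled SW480, a ratio of 427 (95% exact interval 146 to 2075), whereas CLDN7 had 2.02 and 2.16 CPM in SW620 and 158 and 154 CPM in the libraries labelled SW480 (-6.19, SE 0.19). RAB25, a GTPase of epithelial membrane traffic, had 0 and 0.372 CPM in SW620 and 76.4 and 92.5 CPM in the libraries labelled SW480 (-8.31, SE 0.28). KRT80 and KRT7 were higher in SW620 (4.15, SE 0.16, and 3.86, SE 0.30). Without the knockdown library labelled SW480 the median of this list was -0.02.

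Of 33 mesenchymal genes, 10 were higher in SW620 (30.3%) and 18 lower (54.5%), and the median log2 fold change was -0.71, with -1.56 in control cells and -0.52 in knockdown cells. It was -1.14 without the knockdown library labelled SW480 and -1.21 without the SW620 knockdown library. TNC, the matrix protein tenascin C, had 505 and 908 CPM in SW620 and 0.312 and 0.302 CPM in the libraries labelled SW480 (11.02, SE 0.22). VIM, given above, was higher by 7.09 (SE 0.16). ZEB1, a repressor of epithelial genes, had 14.9 and 19.997 CPM against 7.70 and 4.22 CPM (1.54, SE 0.25). On the lower side, the hyaluronan receptor CD44 had 5.32 and 8.77 CPM in SW620 and 1107 and 1339 CPM in the libraries labelled SW480 (-7.40, SE 0.14). PLAU, the urokinase that activates plasmin, and its receptor PLAUR were lower (-3.36, SE 0.16, and -3.11, SE 0.19). SPARC, a matrix glycoprotein, had 1 count in SW620 and 6.87 and 15.8 CPM in the libraries labelled SW480.

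Integrins and matrix genes were lower in SW620 more often than higher, with 26 of 45 lower (57.8%), 16 higher (35.6%) and a median of -0.63, or -0.37 without the SW620 control library. ITGA3, the alpha chain of a laminin receptor, had 5.50 and 5.95 CPM in SW620 and 689 and 560 CPM in the libraries labelled SW480 (-6.71, SE 0.15). COL12A1 and COL6A2, collagen chains, were lower (-8.60, SE 0.25, and -8.09, SE 0.25). NID1, a linker protein of basement membranes, was higher, with 92.2 and 85.9 CPM in SW620 and 3 counts in the libraries labelled SW480, a ratio of 475 (95% exact interval 162 to 2305). ITGB6, the epithelial beta chain that activates latent TGF-beta, had 9.53 and 12.3 CPM against 1 count in each library labelled SW480. Proteases and their inhibitors leaned the same way, with 32 of 50 lower (64.0%), 12 higher (24.0%) and a median of -0.70. The kallikrein KLK7 had 0.733 and 0.372 CPM in SW620 and 41.7 and 55.2 CPM in the libraries labelled SW480 (-6.68, SE 0.30), and the lysosomal protease CTSL was lower (-5.29, SE 0.23). The serine protease TMPRSS2 was higher, with 47.3 and 50.6 CPM in SW620 and 1 count in the libraries labelled SW480.

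**Figure D4:**
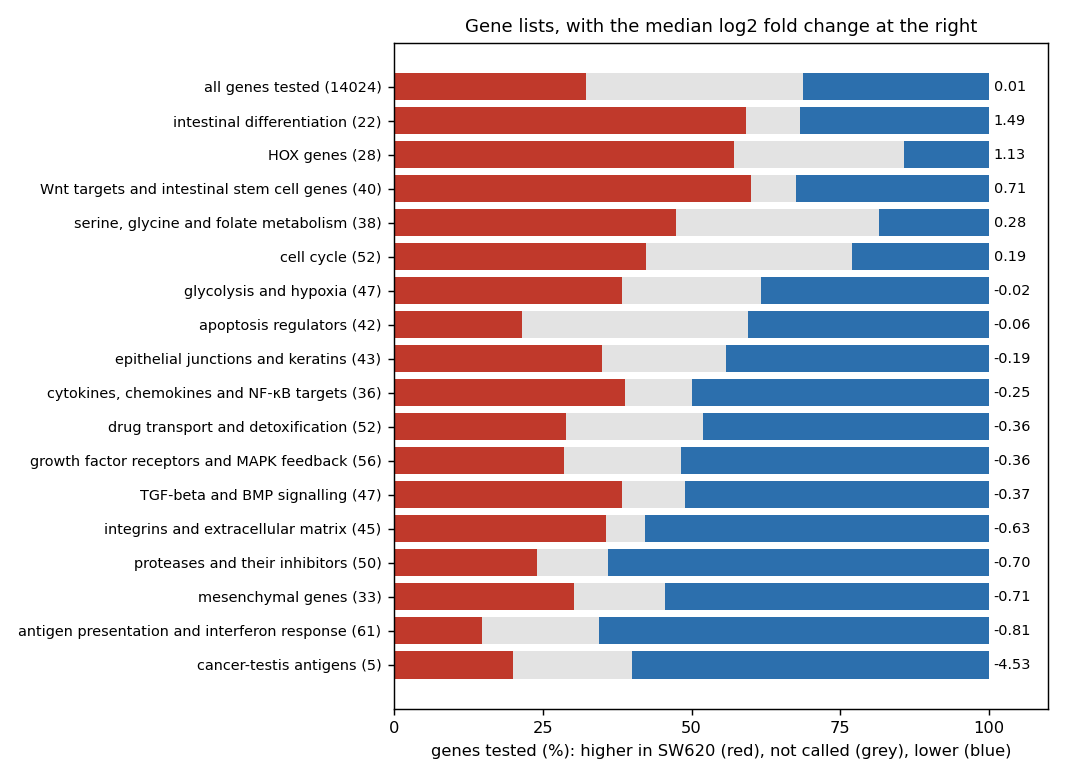
Share of tested genes (horizontal axis, %) called higher in SW620 (red), not called (grey) and called lower (blue) for all genes and for 17 lists, with the number tested in parentheses and the median log2 fold change at the right. The lower genes made up 14.3% of HOX genes (4 genes, but 2 to 8 under other filters and by DESeq2) and 65.6% of antigen presentation genes (40, but 25 by DESeq2), against 31.3% over all genes. By DESeq2, 2826 of all 14024 genes were lower, against 4394 by edgeR. Over all genes, 3497 of 11473 were lower with a filter of 50 counts and 4723 of 20349 with no filter.

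Genes of antigen presentation and the interferon response were lower in SW620 in 40 of 61 cases (65.6%) and higher in 9 (14.8%), with a median log2 fold change of -0.81. By DESeq2, which called 2826 of all 14024 genes lower, 25 were lower. With a filter of 50 counts 5 were higher, and over all genes 3622 of 11473 were. IFITM3, an antiviral membrane protein, had 2.57 and 4.53 CPM in SW620 and 308 and 349 CPM in the libraries labelled SW480 (-6.45, SE 0.17). HLA-B had 6.05 and 6.47 CPM against 158 and 170 CPM (-4.71, SE 0.17). Class I genes are alike in sequence and vary between people, and the counting may have assigned their reads unevenly. B2M, the light chain that they share, had 274 and 248 CPM in SW620 and 290 and 306 CPM in the libraries labelled SW480 (-0.20, SE 0.11, adjusted p = 0.102 by edgeR). NLRC5, which turns on class I genes, had 1.28 and 1.19 CPM against 12.3 and 13.7 CPM (-3.42, SE 0.36), and the peptide transporter TAP1 17.6 and 18.2 CPM against 58.6 and 57.5 CPM (-1.69, SE 0.15). MX2, an antiviral GTPase, was higher in SW620, with 15.4 and 7.88 CPM against 0.104 and 0.151 CPM. The list members PSMB8 and TAPBPL were higher in SW620 too. PSMB8 had 5.50 and 6.91 CPM against 0.416 and 0.754 CPM (3.41, SE 0.50), and TAPBPL differed by 2.04 (SE 0.32).

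Of 62 cancer-testis genes, which are normally silent outside the germline, 5 passed the filter. MAGEA3, PRAME and MAGEB2 were lower in SW620. PIWIL2 was called higher on 12 and 18 counts in SW620 against 1 and 0, and the call was lost with a filter of 50 counts and after thinning the libraries to the smallest total. PRAME had 52.9 and 60.6 CPM in the libraries labelled SW480 and 1 count in SW620, and MAGEB2 had 120 and 136 CPM against 5.13 and 5.87 CPM (-4.53, SE 0.17). MAGEA3 had 89.2 and 93.2 CPM against 1 count, and belongs to a family of near-identical genes.

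Growth factor receptors and the feedback genes of MAPK signalling were lower in SW620 in 29 of 56 cases (51.8%) and higher in 16 (28.6%), with a median of -0.36, or -0.20 without the control library labelled SW480. EGFR, the receptor targeted by antibodies in colorectal cancer, had 112 and 86.7 CPM in the libraries labelled SW480 and 1 count in each SW620 library, a ratio of 962 (95% exact interval 266 to 7949). Its ligands EREG and AREG were lower in SW620 as well. EREG had 486 and 602 CPM in the libraries labelled SW480 against 3.85 and 17.8 CPM (-5.62, SE 0.14), and AREG 17.7 and 11.6 CPM against 1.10 and 1.34 CPM (-3.43, SE 0.34). FGFR2 had 29.7 and 28.2 CPM against 1 count in all. RET had no counts in SW620, at least 41.0-fold lower, and missed the threshold by DESeq2 (adjusted p = 0.0525). ERBB2 was lower in SW620 (-1.48, SE 0.13) and ERBB3 higher (1.54, SE 0.12). IGF2BP1, an RNA-binding protein of fetal tissues, had 219 and 267 CPM in SW620 against 1.56 and 1.66 CPM (7.21, SE 0.20). The feedback inhibitors SPRY2 and SPRY1 were higher in SW620 by 3.70 (SE 0.16) and 3.14 (SE 0.21).

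In the TGF-beta and BMP pathway, 18 of 47 genes were higher in SW620 (38.3%) and 24 lower (51.1%), with a median of -0.37. SMAD4 differed by -5.32 (SE 0.22, adjusted p = 9.78e-123 by edgeR), and SMAD3 and SMAD2, the receptor-activated partners of SMAD4, by -1.73 (SE 0.13) and -0.85 (SE 0.13). ID1 and ID3, targets of BMP signalling, were lower too. ID1 had 29.9 and 43.9 CPM in SW620 and 269 and 329 CPM in the libraries labelled SW480 (-3.02, SE 0.13), and ID3 0.733 and 0.818 CPM against 48.5 and 90.3 CPM (-6.58, SE 0.25). Among the ligands, INHBB, an activin subunit, had 170 and 171 CPM in SW620 and 1.04 and 0.754 CPM in the libraries labelled SW480 (7.51, SE 0.22). The decoy receptor BAMBI had 91.9 and 107 CPM against 4.89 and 4.83 CPM (4.33, SE 0.18), and the receptor TGFBR2 was higher by 1.76 (SE 0.13). PMEPA1, another list member, had 23.8 and 39.4 CPM in SW620 against 0.416 and 0.302 CPM (6.30, SE 0.36).

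Serine, glycine and folate metabolism, the pathway of SHMT2, was higher in SW620 in 18 of 38 genes (47.4%) and lower in 7 (18.4%), with a median of 0.28. By DESeq2, 3 were lower, as were 2826 of all 14024 genes. SHMT2 had 277 CPM in the control and 30.9 CPM in the knockdown library labelled SW480, and 688 and 47.6 CPM in SW620. Within each condition the SW620 library was higher, and the fitted log2 fold change was 1.02 (SE 0.12, adjusted p = 2.90e-17 by edgeR). As the targeted gene, SHMT2 depended on the pairing of conditions. Without a treatment term it was not called (adjusted p = 0.315), and leaving out 1 library, which also removes that term, moved it from -1.71 without the SW620 control library to 3.55 without the control library labelled SW480. It was not called without the knockdown library labelled SW480 (0.39). CBS, which joins homocysteine with serine, had 49.3 and 66.1 CPM in SW620 and 1 count in each library labelled SW480, a ratio of 497 (95% exact interval 137 to 4110). The glutamine and serine transporter SLC1A5 had 1374 and 1056 CPM against 384 and 346 CPM (1.72, SE 0.10). PSPH and PSAT1, enzymes of serine synthesis, were higher by 1.32 (SE 0.13) and 0.86 (SE 0.11), and PHGDH, the first enzyme of that route, was lower (-0.31, SE 0.12). Of the mitochondrial glycine cleavage system, GCSH and AMT were higher in SW620 (1.29, SE 0.13, and 2.17, SE 0.27), while GLDC, the decarboxylase, had 8.22 and 9.65 CPM in the libraries labelled SW480 and 2 counts in SW620. SHMT1, the cytosolic counterpart of SHMT2, had 53.9 and 48.9 CPM in SW620 and 68.2 and 69.1 CPM in the libraries labelled SW480 (-0.42, SE 0.13, adjusted p = 0.00313 by edgeR). The call for SHMT1 was lost by DESeq2 (adjusted p = 0.0935) and without the SW620 knockdown library (adjusted p = 0.0864).

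The other genes that the study followed at the level of single genes varied in how far the lines differed. HMGA2, a chromatin protein of embryonic cells, had 242 and 488 CPM in the libraries labelled SW480 and 35.4 and 66.9 CPM in SW620 (-2.83, SE 0.12). CBFB, the partner of RUNX factors, had 245 and 105 CPM in SW620 and 88.2 and 42.5 CPM in the libraries labelled SW480 (1.39, SE 0.13). SCD, the desaturase of fatty acid synthesis, was lower in SW620 (-0.73, SE 0.09), and its call was lost with no treatment term (-0.75, adjusted p = 0.0523 by edgeR). Leaving out 1 library also removes that term, here and for the genes below. SCD then differed by -0.18 without the control library labelled SW480 and by -0.42 without the SW620 knockdown library. UHRF1, CDK2 and ANLN, which act in DNA methylation, the cell cycle and cell division, were not called, with log2 fold changes of 0.00 (SE 0.16), -0.05 (SE 0.13) and -0.02 (SE 0.12). UHRF1 had 230 and 69.4 CPM in the libraries labelled SW480 and 234 and 67.9 CPM in SW620, so it was lower with knockdown in each line. With no treatment term it moved from -1.15 without the SW620 control library to 1.09 without the control library labelled SW480. CDKN1B was called lower (-0.46, SE 0.17, adjusted p = 0.0126 by edgeR), and the call was lost by DESeq2 and without the knockdown library labelled SW480 or either SW620 library.

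Cell cycle genes were higher in SW620 in 22 of 52 cases (42.3%) and lower in 12 (23.1%), with a median of 0.19. With 2-fold in both conditions, 5 were higher and 6 lower, against 1665 and 2176 of all 14024 genes. Leaving out 1 library moved the median between 0.03 and 0.37 and, without the SW620 knockdown library, the lower genes to 7. MKI67, the common marker of cycling cells, did not pass the test (-0.05, SE 0.09, adjusted p = 0.675 by edgeR). CDK6 had 611 and 577 CPM in SW620 and 154 and 158 CPM in the libraries labelled SW480 (1.93, SE 0.11), and the inhibitor CDKN2A was higher by 1.68 (SE 0.13). CDKN1A, whose levels are given above, was lower (-6.01, SE 0.16), as were CCNE1 (-3.05, SE 0.18) and MDM2 (-1.64, SE 0.13). Among apoptosis regulators, FAS, BBC3 and PMAIP1 were lower in SW620, with differences of -2.62 (SE 0.27), -2.38 (SE 0.31) and -2.04 (SE 0.16). Over all 42 apoptosis regulators tested, 9 were higher (21.4%) and 17 lower (40.5%), with a median of -0.06. That median moved between -0.16 and -0.02 when 1 library was left out. By DESeq2, 11 were lower, as were 2826 of all 14024 genes.

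Glycolysis and hypoxia genes were higher and lower equally often, 18 each of 47, with a median of -0.02. Without the SW620 knockdown library 11 were higher, and without the SW620 control library 10 were lower. By DESeq2, 11 were lower, as were 2826 of all 14024 genes. CA9, the carbonic anhydrase induced in hypoxia, had 71.0 and 93.4 CPM in SW620 and 1.04 and 0.905 CPM in the libraries labelled SW480 (6.33, SE 0.23). EPAS1, the hypoxia factor HIF-2 alpha, went the other way with 0.733 and 1.12 CPM against 88.3 and 72.4 CPM (-6.26, SE 0.23), and BNIP3 was lower (-4.50, SE 0.25). HIF1A had 184 and 222 CPM in SW620 and 230 and 219 CPM in the libraries labelled SW480 (-0.15, SE 0.11, adjusted p = 0.237 by edgeR).

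Drug transport and detoxification genes were lower in SW620 in 25 of 52 cases (48.1%) and higher in 15 (28.8%), with a median of -0.36, or -0.23 without the knockdown library labelled SW480. CYP24A1, which degrades vitamin D, had 0 and 0.892 CPM in SW620 and 158 and 184 CPM in the libraries labelled SW480 (-8.12, SE 0.23). The export pump ABCC2 was lower (-3.93, SE 0.15). GSTT1, a glutathione transferase, had 32.1 and 38.3 CPM in SW620 and no counts in the libraries labelled SW480, at least 98.8-fold higher. The aldo-keto reductase AKR1C3 was higher by 7.11 (SE 0.30), and shares much of its sequence with AKR1C1 and AKR1C2. Cytokine, chemokine and NF-κB genes were higher in 14 of 36 cases (38.9%) and lower in 18, with a median of -0.25. With no filter on low counts the median turned to 0.69, and with a filter of 50 counts it was -0.91. The higher genes fell to 9 by DESeq2 and to 4 with a filter of 50 counts. Over all genes, 2680 of 14024 and 3622 of 11473 were higher under these settings. The receptors LIFR and IL1R1 had no counts in SW620, and LIFR had 34.4 and 21.6 CPM in the libraries labelled SW480. IL18 was lower (-6.28, SE 0.30), and the membrane chemokine CX3CL1 had 63 and 148 counts in SW620 and none in the libraries labelled SW480.

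The differences were uneven along the genome. Symbols were placed on GRCh38 by GENCODE 29, which gave a position to 13610 of the tested genes, because the deposited table carries no coordinates. Chromosome X had the highest median log2 fold change, 0.66 over 430 genes, with 63.3% of its genes higher in SW620 and 17.0% lower. It was followed by chromosome 20 (0.48), chromosome 21 (0.38) and chromosome 7 (0.24). The lowest medians were those of chromosomes 8 (-0.40), 18 (-0.26) and 19 (-0.23). On chromosome 20, 54.5% of 378 genes were higher and 17.7% lower. These medians had the same sign in control cells alone and in knockdown cells alone. DNA copy number was not measured in this series, and its part in these medians was not tested.

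**Figure D5:**
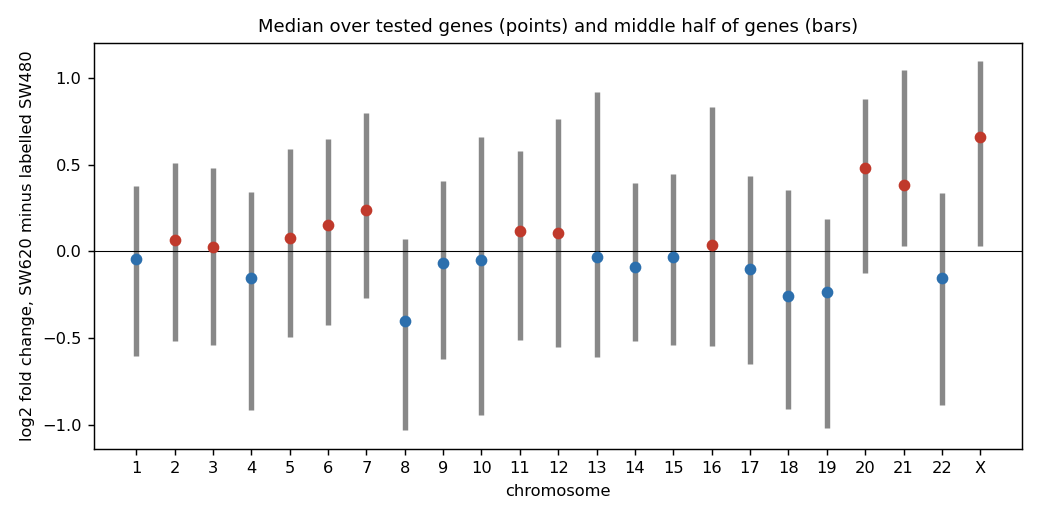
Median log2 fold change of SW620 against the libraries labelled SW480 over the tested genes of each chromosome (points; red above 0, blue below 0), with bars from the lower to the upper quartile of genes. Chromosomes X, 20 and 21 had the highest medians (0.66, 0.48 and 0.38) and chromosome 8 the lowest (-0.40).

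In windows of 10 Mb with at least 20 tested genes, the median was over 0.5 in 27 of 243 windows and under -0.5 in 16. The highest, 1.49, was the window of chromosome 12 from 20000001 to 30000000, in which 20 of 30 genes were higher in SW620 and 5 lower. STK38L, a kinase of the Hippo pathway family, had 386 and 369 CPM in SW620 and 28.9 and 34.7 CPM in the libraries labelled SW480 (3.57, SE 0.13). ITPR2, a calcium channel of the endoplasmic reticulum, was higher by 3.37 (SE 0.13), and SOX5 had 29.5 and 29.1 CPM against 1 count. The next windows were on chromosome 16, from 70000001 to 80000000 with a median of 1.23 and from 60000001 to 70000000 with a median of 1.02. In the first of these, 41 of 56 genes were higher, among them SF3B3, a splicing factor subunit, with 1511 and 1641 CPM in SW620 and 387 and 382 CPM in the libraries labelled SW480 (2.03, SE 0.10), and MTSS1L (2.98, SE 0.12). In the second, 55 of 79 were higher, among them GFOD2 and THAP11 (2.33, SE 0.14, and 2.22, SE 0.14).

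The lowest window was at the end of chromosome 22, from 50000001, with a median of -0.75 and 15 of 22 genes lower. SHANK3, a scaffold protein best known from synapses, had 0 and 0.818 CPM in SW620 and 47.5 and 41.2 CPM in the libraries labelled SW480 (-6.22, SE 0.30), and TYMP, thymidine phosphorylase, was lower (-5.71, SE 0.43). Windows of chromosome 8 with medians of -0.72 and -0.70 came next. Chromosome 10 from 100000001 to 110000000 had a median of -0.68, with 50 of 68 genes lower. Chromosome 18 from 50000001 to 60000000, the window of SMAD4 (51028394 to 51085045), had a median of -0.65, with 18 of 27 genes lower and 3 higher. That median was -0.56 in control cells alone, -0.45 in knockdown cells alone and -0.45 among genes at 5 CPM or more on average.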

How the data were processed

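RNA of control and SHMT2-knockdown SW480 and SW620 cells was sequenced in 4 libraries, 1 per cell line and condition. The authors deposited raw read counts per gene symbol, without normalization. The submitters' processing notes name Bowtie 0.12.2 and the genome build hg18, and the labels an Illumina TruSeq kit. How reads were counted, with which annotation and whether by strand, is not given in the sources used here, so overlapping and antisense genes may share reads. In 28 rows the symbol had been turned into a date (0.217% of counts), and these kept their names.

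Totals were 5530129 to 13774288 counts per library. A minimum of 10 counts in 2 or more libraries left 14024 of 26364 rows, tested with edgeR 4.0.16 in R 4.3.3: TMM scaling, the quasi-likelihood test with terms for treatment and cell line, two-sided, Benjamini-Hochberg adjustment over all tested genes, called at an adjusted p under 0.05. The model left 1 residual degree of freedom, so the p-values rest on the spread shared across genes. The interaction of line and treatment is part of that spread and could not be tested. SE values come from the same test. Differences within a condition used a prior count of 2 and carry no p. A fold against a line without counts is a lower bound from 3 counts per library. With 1 to 3 counts in a line, the pooled ratio has a 95% exact binomial interval. Both cover counting error only.

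The cell lines, the gene lists and the tests were chosen with earlier results of these data known. Named genes are the 10 largest rises and falls at 20 CPM or more in the higher line, up to 5 members per list and direction at 5 CPM or more, the genes the study tested singly, marker genes, and up to 5 genes per window. The largest rises and falls and the window genes leave out small RNAs, date-like names, XIST and genes on chromosomes 8 and Y. Named outside that rule, after their values were seen, are the list members AXIN2, NKD1, NOTUM, CTNNB1, ZEB1, B2M, TAP1, ERBB2, ERBB3, SMAD2, SMAD3, BAMBI, TGFBR2, PSAT1, PHGDH, MKI67, HIF1A and PIWIL2. Some genes that the rule named are not reported here. Lists are described by counts and medians, with no test. The scripts were tested on simulated data. Alternatives were DESeq2 1.42.0, its size factors, no treatment term, other filters on low counts, a 2-fold limit, thinning to the smallest total, each library left out, and each condition alone.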

Additional observations from a re-analysis of the deposited data

Results flagged for a closer look

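Among the genes that the study tested singly and the gene lists, 4 had a difference between the lines that pointed in opposite directions in control and in knockdown cells. None of these changes of direction was tested, because each condition had 1 library per line. Values are log2 differences of SW620 minus the libraries labelled SW480, with a counting error that leaves out biological spread. ANLN differed by -0.16 (counting SE 0.050) in control cells and by 0.12 (0.072) in knockdown cells, a change of 0.27. CDK2 differed by 0.020 (0.080) and -0.12 (0.086), a change of -0.14. UHRF1 differed by 0.028 (0.051) and -0.032 (0.082), a change of -0.060. The median over the 47 glycolysis and hypoxia genes was -0.12 in control cells and 0.076 in knockdown cells, a change of 0.20.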

How the results depend on the processing

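The counts of 4532 higher and 4394 lower genes fell to 2680 and 2826 by DESeq2, and to 1665 and 2176 with 2-fold in both conditions. Leaving out 1 library, together with the treatment term, gave 3345 to 3767 higher and 3646 to 3754 lower genes. Under the other alternatives both counts stayed within 1.5 times. Of 201 named genes, 184 kept their call under every alternative in which they could be tested, and those called kept their direction. Each condition alone gave no calls, so only the direction was compared there. ANLN and CDK2, which were not called, count among the 184 although their sign differed between the conditions. The genes named outside the rule, after their values were seen, were not among the 201, nor were most genes named only as markers. They entered the alternatives only within the gene counts and list medians. Without the SW620 control library SHMT2 and UHRF1 were called lower (-1.71 and -1.15), against 3.55 and 1.09 without the control library labelled SW480. These settings remove the treatment term, and both genes differed between control and knockdown in each line. The other 15 genes lost a call in at least 1 setting. Of 221 list medians under alternatives, 217 kept their sign, and those that did not belonged to glycolysis and hypoxia and to cytokines. The 221 include 17 medians under the 2-fold limit, which changes calls only, so these could not change sign. With no filter on low counts the cytokine median was 0.69. No window with a median beyond 0.5 in size changed sign in either condition alone or among genes at 5 CPM or more. The treatment term compares the lines within each condition and leaves 1 residual degree of freedom. Beyond that term, no paired analysis was possible because each group held 1 library, with no replicate numbers to pair. With 1 library per line and condition, no spread between cultures was measured, and genes under 10 counts were not tested.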
